A study of Saccharomyces cerevisiae with 15 samples.

Results

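The loss of Yap8 was followed in yeast cells that already lacked Yap1, by setting 3 arrays titled y1y8 with arsenate for 60 min against 3 arrays titled yap1 with arsenate for 60 min. These 6 arrays, of 15 in the series, were chosen by their titles, and the comparison ran over all 5588 yeast genes measured. The y1y8 cells of Saccharomyces cerevisiae carried losses of YAP1 and of YAP8, and the yap1 cells a loss of YAP1. Both groups received AsV (arsenate), so arsenate and the lack of Yap1 were common to them. The remaining 9 arrays were 3 of yap8 with arsenate for 60 min, 3 of wild type (WT) with arsenate for 60 min and 3 of untreated wild type at 0 min. They served as the matching loss of Yap8 in cells with Yap1 and as a view of the level before arsenate. The design text of the series describes growth of a double mutant with plasmids, empty or holding YAP1 or YAP8, in 2 mM arsenate until exponential phase. The labels name genotypes and 60 min, and do not say which plasmid a group held or at what dose. Nothing in the labels says that the replicates were separate cultures, so the p-values measure the spread between these arrays, which may be technical.

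Yap8 is encoded by ARR1, the name used in the files, and is a basic leucine zipper factor of the yeast AP-1 family. It senses arsenic and activates the divergently transcribed genes ARR2 and ARR3. Arr2 reduces arsenate to arsenite, and Arr3 carries arsenite out of the cell. Yap1, another factor of the family, responds to oxidants, thiol-reactive agents and metals, and activates genes of thioredoxin, glutathione and detoxification enzymes.

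Signal, the brightness of a probe set, was quantile normalized over all arrays, which makes every array's distribution equal, and values below are on that scale unless called log2. Differences are log2 y1y8 minus yap1 with the standard error (SE) of a limma fit to all arrays, and adjusted p is the Benjamini-Hochberg value over 5588 genes. Signals of a gene are relative to the other genes of the array. Before normalization the median signal of the yeast genes ran from 668.7 to 888.4 on the 6 arrays, and 98.98% to 99.27% of them were called present. Deviations from the group mean had an SD of 0.14, 0.13 and 0.19 log2 units on y1y8 replicates 1, 2 and 3, and of 0.16, 0.15 and 0.12 on yap1 replicates 1, 2 and 3. Among the y1y8 arrays, replicate 3 correlated with the others at 0.987 each, and they with each other at 0.995. The yap1 arrays spread about as far, with a correlation of 0.988 between replicates 1 and 2. For several values that rest on 1 array, the value without it is therefore also given.

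The deleted genes were read first. The signal of ARR1 was 6.39, 3.29 and 2.12 on the y1y8 arrays, all called absent, against 2018, 2217 and 1876 on the yap1 arrays. The groups lay far apart. Each y1y8 array was then taken at the higher of its own value and the lowest value among yeast genes called present on it. On that basis ARR1 was 357-fold lower in y1y8. This figure was not tested and is no firm minimum, since genes can be called absent at higher signals. MFA1 was called absent on all y1y8 arrays at a mean of 5.42 log2 units. Over the alternative settings the ARR1 difference ran from -9.58 to -6.69. The limma adjusted p of 1.48e-10 belongs to the difference of -9.16 fitted through the signals called absent. YAP1 was at 643.3, 573 and 550.4 on the y1y8 arrays, against 502.2, 626.8 and 660.3 on the yap1 arrays. These ranges overlapped, and both groups carry the label of a YAP1 loss. Its probe set was called present on all 6 arrays, while YAP1 was at 3194, 3041 and 3779 in yap8 cells and at 3325, 3602 and 2911 in treated wild type.

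In cells without Yap1, loss of Yap8 lowered the RNA of 5 genes and raised none at an adjusted p under 0.05, which is 0.0895% of the 5588 genes lower and 0% higher. The 5 were ARR1 itself, its targets ARR2 and ARR3, the nitroreductase-like gene FRM2 and, by much less, KEL2. At an unadjusted p under 0.05, limma gave 222 genes higher (3.97%) and 158 lower (2.83%). The median difference over all genes was -0.0035, which the quantile normalization largely holds near 0. Of all genes, 95% lay between -0.27 and 0.33. The 95% confidence interval lay within 2-fold in either direction for 5476 genes (98%) and within 1.5-fold for 4998 (89.4%).

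**Figure D1:**
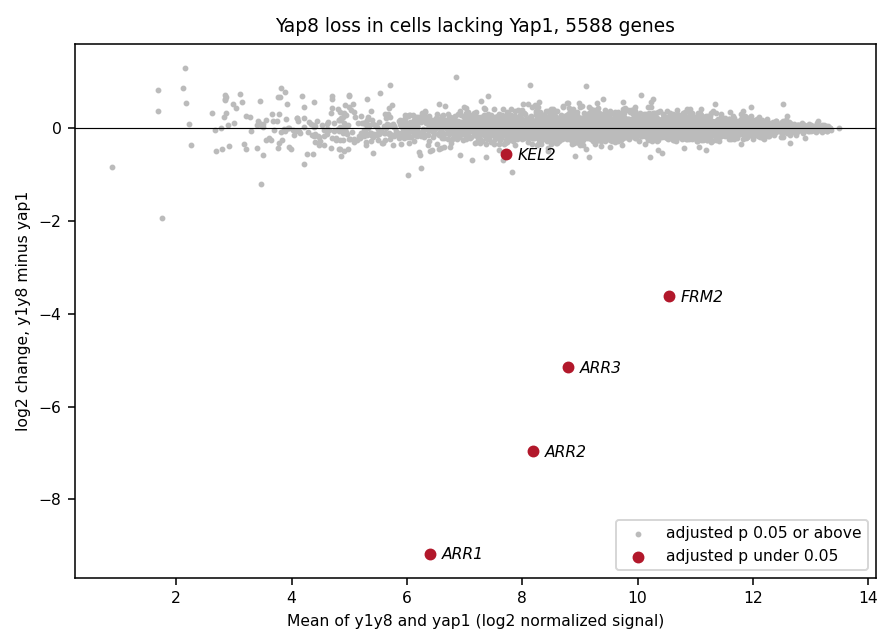
Log2 difference of y1y8 minus yap1 (vertical axis) against the mean log2 normalized signal of both groups (horizontal axis), 1 point per gene, 5588 genes. The 5 genes past an adjusted p of 0.05 are red, and ARR1, ARR2, ARR3 and FRM2 stand between -3.62 and -9.16 while nearly all other genes lie near 0. The value of ARR1 is fitted through signals called absent and is no bound.

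ARR2, the arsenate reductase gene, fell furthest among the genes still called present in y1y8. Its signal was 24.9, 25.1 and 29.2 on the y1y8 arrays, against 3333, 3165 and 3277 on the yap1 arrays. Every y1y8 array lay far below every yap1 array, although the probe set was still called present on each. The difference was -6.95 ± 0.13 (SE, n = 3 each), or 124-fold (limma adjusted p = 7.51e-13). ARR3, the arsenite exporter gene, had 62.8, 94 and 69.2 in y1y8, against 2563, 2559 and 2811 in yap1. The groups did not come near each other, and ARR3 fell by 5.15 ± 0.16, or 35.6-fold (limma adjusted p = 1.76e-10).

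The untreated wild type places these levels. ARR3 was at 77.5, 56 and 62.8 there, so the y1y8 cells in arsenate overlapped the range of cells that had seen none, and the difference of y1y8 from untreated wild type was 0.19 (95% confidence interval -0.15 to 0.54, limma adjusted p = 0.276). In yap1 cells the same gene stood 5.35 log2 units above untreated wild type (limma adjusted p = 4.96e-12). ARR2 was at 2403, 1912 and 2218 in untreated wild type, far above y1y8. Its difference of y1y8 from untreated wild type was -6.36 ± 0.13 (limma adjusted p = 1.81e-13). These comparisons change genotype, arsenate and time together, and 82% of all genes passed the threshold between y1y8 and untreated wild type.

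In the gene table of assembly R64, ARR1 lies between ARR2 and SGE1, a multidrug transporter gene. SGE1 was measured as a check of the side away from ARR2. It had 484.5, 414.8 and 672.3 in y1y8, against 593.5, 510.3 and 606.3 in yap1. The ranges overlapped, and the difference was -0.15 ± 0.17 (limma adjusted p = 0.937). Beside YAP1, the table places GIS4, whose signal was 391.2, 368.5 and 490.4 in y1y8 and 352, 347.1 and 335.3 in yap1, against 1978, 2119 and 1975 in yap8 and 1991, 1948 and 2035 in treated wild type. GIS4 was therefore low on all 6 arrays of cells without Yap1, and differed between y1y8 and yap1 by 0.26 ± 0.09 (limma adjusted p = 0.51). Without y1y8 replicate 3 that difference was 0.14. Whether the place of ARR2 directly beside the lost ARR1 affected its signal was not tested.

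FRM2 was the fourth large fall. It encodes a nitroreductase-like protein and is counted among the genes that Yap1 activates. The signal was 495.7, 518.4 and 303.5 in y1y8, against 4716, 5403 and 5730 in yap1. All y1y8 arrays lay far below all yap1 arrays, and y1y8 replicate 3 was the lowest. FRM2 fell by 3.62 ± 0.17, or 12.3-fold (limma adjusted p = 2.15e-08). It had 113.2, 85.8 and 113.9 in untreated wild type, so y1y8 cells kept 2.05 log2 units of rise over that level (limma adjusted p = 8.31e-08). Without y1y8 replicate 3 the fall was 3.39, and it passed the threshold under each of the 16 alternative settings. Among these, the series matrix setting had the same input as the main fit and could only repeat it.

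HBN1, the annotated neighbour of FRM2 and the gene of its close relative, was set beside it after its values were seen. HBN1 had 4623, 4317 and 4474 in y1y8, against 4391, 4650 and 4222 in yap1. The groups overlapped, with a difference of 0.02 ± 0.07 and a 95% confidence interval of -0.13 to 0.17 (limma adjusted p = 0.984). Both neighbours had higher signals with Yap1 present: HBN1 was at 8380 to 8919 in treated wild type and FRM2 at 8280 to 8495.

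KEL2, which encodes a kelch-repeat protein linked to cell fusion and morphology, had 189.2, 167.6 and 163.8 in y1y8, against 268.9, 247 and 248.6 in yap1. The groups did not overlap, although the gap was small. The difference was -0.56 ± 0.08, or 1.47-fold lower (limma adjusted p = 0.0198). This call ended under 9 of the 16 alternative settings, among them median centring of the arrays (adjusted p = 0.218) and leaving out y1y8 replicate 3 (adjusted p = 0.122). KEL1, which encodes the partner protein of Kel2, differed by -0.07 ± 0.10 (limma adjusted p = 0.952). Just short of the threshold, with higher signal in y1y8, was URA3, the uracil synthesis gene often used as a plasmid marker. URA3 had 7638, 7051 and 6531 in y1y8, against 4378, 5417 and 4991 in yap1, which did not overlap. Its difference was 0.52 ± 0.09 (limma adjusted p = 0.0555), and it passed under 4 of the 16 alternative settings. The design text names plasmids, and which of them these cells held is not in the labels. LEU2, another plasmid marker, had 5789, 5898 and 3248 in y1y8, against 4413, 5839 and 5343 in yap1, which overlapped.

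**Figure D2:**
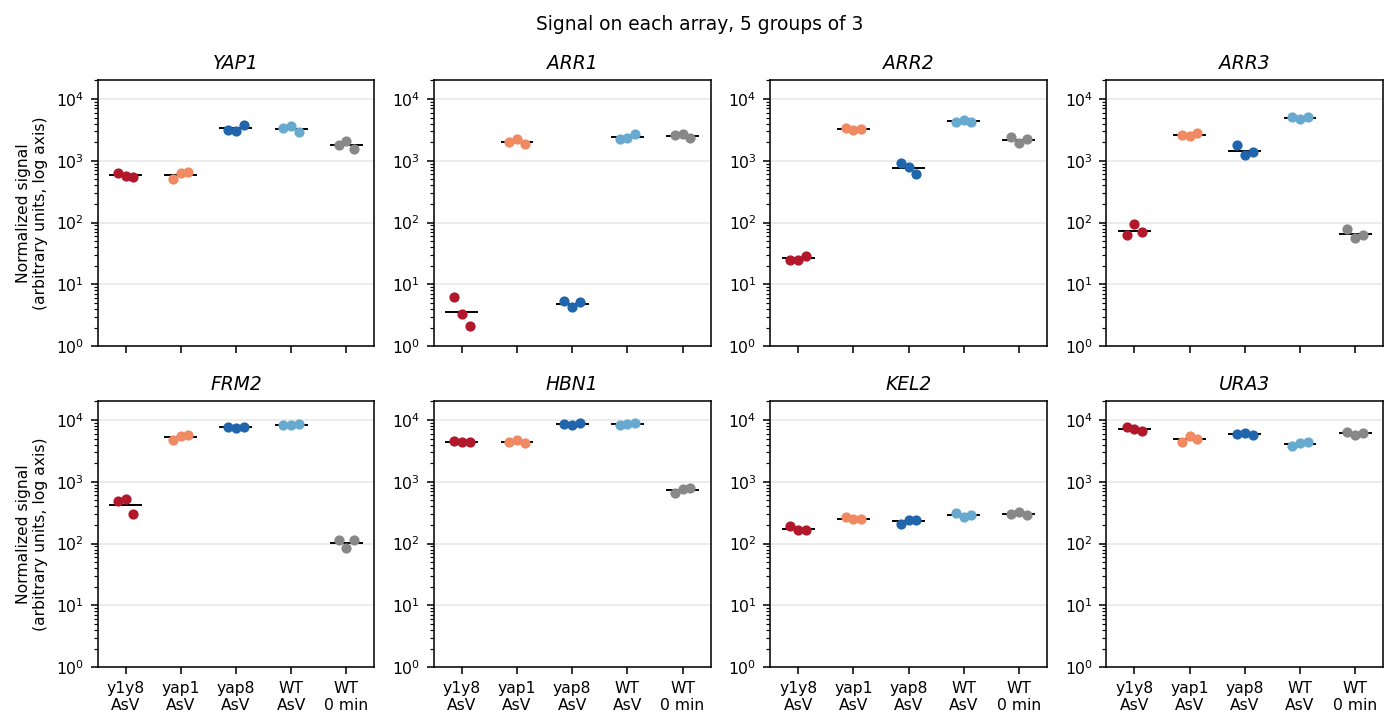
Normalized signal (log axis, arbitrary units) of 8 genes on each of 15 arrays, with points for single arrays and a line at the geometric mean of each group of 3. ARR2, ARR3 and FRM2 are low in y1y8 and high in yap1, HBN1 and YAP1 are alike in both groups, and the ARR1 points of y1y8 and yap8 were called absent.

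Of the genes at least 2-fold apart, 7 were lower and 2 higher in y1y8. Beside ARR1, ARR2, ARR3 and FRM2 these were YLR162W, MGA1 and YOL164W-A on the lower side and YNL162W-A and HXT13 on the higher side, named here because their values were large. YLR162W was called present on 0 of 3 y1y8 and 1 of 3 yap1 arrays, and MGA1 and HXT13 on none of either, so their differences rest on dim probe sets. YOL164W-A had 43.9, 45.9 and 47.4 in y1y8, against 120.4, 69.3 and 94.6 in yap1 (difference -1.02 ± 0.21, limma adjusted p = 0.164). YNL162W-A had 162.8, 197.8 and 147.9 in y1y8, against 88.2, 83.1 and 65.9 in yap1 (difference 1.10 ± 0.23, limma adjusted p = 0.164). Both pairs of groups were apart and called present throughout, yet neither gene passed the adjusted threshold.

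The same loss was then read in cells with Yap1, from 6 arrays that this comparison does not share. In yap8 cells 7 genes passed the threshold against treated wild type (0.125% of all genes), of which 5 were lower and 2 higher. ARR1 was again called absent on the 3 yap8 arrays. With low values replaced in the same way, it was 391-fold lower than in treated wild type. That is likewise no firm minimum, and the authors' deposited table gives a signed fold of -163.01. The limma adjusted p of 4.06e-10 belongs to the difference of -8.94 fitted through the signals called absent and not to the 391-fold figure. ARR2 had 926.6, 781.1 and 603.9 in yap8, against 4186, 4614 and 4273 in treated wild type, a fall of 2.52 ± 0.13 (limma adjusted p = 1.7e-07). Both groups were well apart, but the yap8 arrays stayed far above the 24.9 to 29.2 of y1y8. ARR3 had 1810, 1241 and 1394 in yap8, against 5085, 4769 and 5061 in treated wild type, a fall of 1.76 ± 0.16 (limma adjusted p = 0.000116). FRM2 had 7605, 7394 and 7692 in yap8, against 8296, 8280 and 8495 in treated wild type, with a difference of -0.14 ± 0.17 (limma adjusted p = 0.985).

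The difference between both losses of Yap8 was itself tested, as y1y8 minus yap1 less yap8 minus treated wild type. It passed for 3 genes (0.0537% of all genes, all lower), against 237 (4.24%) at an unadjusted p under 0.05. ARR2 fell by 4.43 ± 0.19 log2 units more without Yap1 than with it (limma adjusted p = 2.15e-08). For ARR3 the extra fall was 3.39 ± 0.23 (limma adjusted p = 3.65e-06), and for FRM2 3.48 ± 0.24 (limma adjusted p = 3.65e-06). ARR2 and ARR3 thus fell in both backgrounds and by more without Yap1, and FRM2 fell past the threshold only without Yap1. These 3 genes passed under each of the 22 alternative settings of this test. No such reading was possible for ARR1, which was called absent on all arrays without Yap8. With Yap1 present, FRM2 was high on the scale, with a mean of 7564 in yap8 and 8357 in treated wild type. The highest signal of any probe set on those arrays ran from 11049.6 to 12565.3 before normalization. Whether the upper end of the scale compressed differences of FRM2 there was not tested.

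The yap1 cells lay less than 2-fold from treated wild type for these target genes and for HBN1. Their difference from treated wild type was -0.42 for ARR2, -0.91 for ARR3, -0.67 for FRM2 and -0.96 for HBN1. The y1y8 cells differed from yap8 cells by -4.85 for ARR2, -4.30 for ARR3, -4.15 for FRM2 and -0.93 for HBN1. The first of these comparisons shares the yap1 arrays and the second the y1y8 arrays with the one described here, so they are given side by side only.

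**Figure D3:**
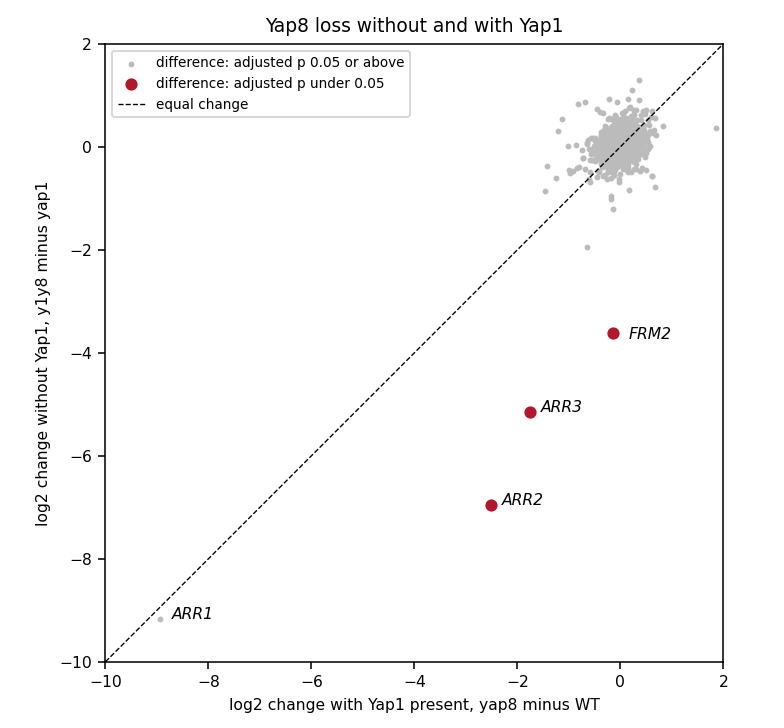
Log2 difference on Yap8 loss without Yap1 (y1y8 minus yap1, vertical axis) against that with Yap1 (yap8 minus treated wild type, horizontal axis), 1 point per gene, 5588 genes. Red points passed the test of the difference (adjusted p under 0.05): ARR2 and ARR3 lie left of 0 and far below the line of equal change, and FRM2 lies at -0.14 on the horizontal and -3.62 on the vertical axis. ARR1 was called absent in both groups without Yap8.

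Over all 5588 genes both differences correlated at 0.55 (Pearson) and 0.22 (Spearman), and at 0.24 (Pearson) without YAP1, ARR1, ARR2 and ARR3 (5584 genes). The points share the normalization of all arrays, and genes are not independent replicates. The 4 other genes called with Yap1 present were TOS6 and SVS1, which encode cell wall proteins, URA3, and YKR005C, which has no standard name. TOS6 fell by 1.47 (limma adjusted p = 0.00128) and SVS1 by 1.25 (limma adjusted p = 0.000353) in yap8 against treated wild type. In y1y8 against yap1 the difference was -0.87 ± 0.17 for TOS6 (limma adjusted p = 0.164) and -0.61 ± 0.13 for SVS1 (limma adjusted p = 0.18). TOS6 had 59.5, 48.9 and 61.2 in y1y8, against 116.7, 76.3 and 120.7 in yap1, and SVS1 had 388.8, 408.3 and 378.4 in y1y8, against 674.2, 474 and 667.7 in yap1. The groups did not overlap for either gene, with yap1 replicate 2 the lowest of its group, and without that array both passed the threshold (adjusted p = 0.00845 for TOS6 and 0.00813 for SVS1). URA3 was 0.53 higher in yap8 (limma adjusted p = 0.0441), beside 0.52 in y1y8. YKR005C was 0.39 higher in yap8 (limma adjusted p = 0.043), beside 0.14 in y1y8 (limma adjusted p = 0.741). With Yap1 present, the call of URA3 ended under 11 and that of YKR005C under 12 of the 16 alternative settings, among them each that left out 1 array, both other scalings and the replicate block (adjusted p = 0.123 for URA3 and 0.0582 for YKR005C). In the authors' deposited table for yap8 against treated wild type, which has 25 genes, the signed fold was -163.01 for ARR1, -3.83 for ARR2, -3.35 for ARR3, -2.22 for SVS1 and 1.35 for URA3. TOS6 and YKR005C are not among its genes. It also holds genes that did not pass the threshold in the main fit here, such as PCL1 at -2.48 and CLN1 at -1.69. CLN1 did pass with median centring and with 75th percentile scaling. The rule that chose the authors' genes need not match the adjusted p used here, so the lists are not directly comparable.

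The genes raised by arsenate were read as a group. In wild type 959 genes were at least 2-fold higher with arsenate and past the threshold. Of these 3 were lower in y1y8 than in yap1, namely ARR2, ARR3 and FRM2 (0.313%, against 0.0895% of all genes), and 0 were higher, against 0% of all genes. Their median difference was -0.036, and the 95% confidence interval lay within 2-fold for 927 of them.

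Among 8 genes of the YAP family ARR1 alone passed, and the median difference was -0.05. For this list and those below, the share over all genes was 0.0895% lower and 0% higher. A list with no gene called is near that share, so its count is no result about its members. CAD1, which encodes Yap2, had 2111, 2008 and 1657 in y1y8, against 1712, 2290 and 2022 in yap1 (difference -0.06 ± 0.11, limma adjusted p = 0.961), which overlapped. CIN5, which encodes Yap4, varied widely among replicates, at 65.6, 85.1 and 162.8 in y1y8, against 255.5, 66.1 and 104.9 in yap1 (difference -0.32 ± 0.40, limma adjusted p = 0.941), and its sign turned without yap1 replicate 1 (0.22). YAP3, YAP5, YAP6 and YAP7 lay between -0.08 and 0.14.

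Yap1 targets of oxidative and thiol stress, 44 measured of 46 listed, had 1 member lower, FRM2 (against 0.0895% of all genes), and none higher (against 0%), with a median of -0.00085. The other 43 ran from -0.18 for ZTA1, a quinone oxidoreductase, to 0.26 for OSI1. The OSI1 difference ran from 0.04 to 0.41 when 1 array was left out. For 39 of the 43 the 95% confidence interval lay within 1.5-fold. FLR1, a multidrug transporter gene, had 418.9, 493.9 and 446.6 in y1y8, against 497.8, 420.5 and 441.2 in yap1. It was at 7218 to 7376 in treated wild type, and its difference between y1y8 and yap1 was 0.00 ± 0.08. Its mean was 403.7 in untreated wild type and 453.2 in yap1, so yap1 cells showed little rise that a loss of Yap8 could lower. SRX1, the sulfiredoxin gene, had 1297, 1231 and 1357 in y1y8, against 1507, 1205 and 1365 in yap1, with 129 to 148.9 in untreated wild type. The y1y8 and yap1 groups overlapped for both genes. OYE3, an old yellow enzyme gene, differed by -0.06 ± 0.14, GTT2, a glutathione transferase gene, by -0.07 ± 0.08, and TRR1, the thioredoxin reductase gene, by 0.00 ± 0.06.

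Among genes of sulfate uptake and methionine synthesis, a route to glutathione, none of 40 passed, and the median difference was 0.03. SUL1, a sulfate permease gene, had 4790, 4449.6 and 4981 in y1y8, against 3939.7, 4311 and 4572 in yap1, and 32.1 to 39.7 in untreated wild type. The y1y8 and yap1 ranges overlapped, and SUL1 stood 7.02 log2 units above untreated wild type in y1y8 (limma adjusted p = 6.92e-15). None of 30 glutathione and glutaredoxin genes passed (median -0.03), and GSH1, the first enzyme of glutathione synthesis, differed by 0.08 ± 0.11. None of 40 proteasome genes (median 0.01) and none of 38 chaperone genes (median -0.03) passed, against 0.0895% of all genes lower and 0% higher. The interval lay within 2-fold for 39 of the 40 sulfate genes and for all members of the glutathione, proteasome and chaperone lists. MET17 had the highest difference of the sulfate list, 0.61, but its probe set was dim. Its mean signal was 9.03 in y1y8, 6.1 in yap1 and 4.18 in untreated wild type.

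Transport of arsenic and phosphate was read next, since arsenate enters cells through phosphate carriers. None of 18 genes passed, with a median of 0.03. YCF1, a vacuolar pump of glutathione conjugates, had 1228, 1152 and 1412 in y1y8, against 1177, 1149 and 1174 in yap1 (difference 0.11 ± 0.07, limma adjusted p = 0.854), and the groups overlapped. FPS1, a glycerol channel that also passes arsenite, differed by -0.05 ± 0.05. PHO84, a high-affinity phosphate transporter gene, had 514.3, 533.8 and 1569 in y1y8, against 394, 406.7 and 409.9 in yap1. PHO89, a sodium-phosphate cotransporter gene, had 265.2, 322.3 and 680.2 in y1y8, against 232.7, 193.1 and 189.7 in yap1. For both genes the groups did not overlap, and y1y8 replicate 3 was the highest array. The difference was 0.90 ± 0.34 for PHO84 (limma adjusted p = 0.621) and 0.92 ± 0.27 for PHO89 (limma adjusted p = 0.398), and without that array 0.38 and 0.52. SPL2, a regulator of phosphate carriers, differed by 0.69 ± 0.20 (limma adjusted p = 0.396) and by 0.44 without it.

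**Figure D4:**
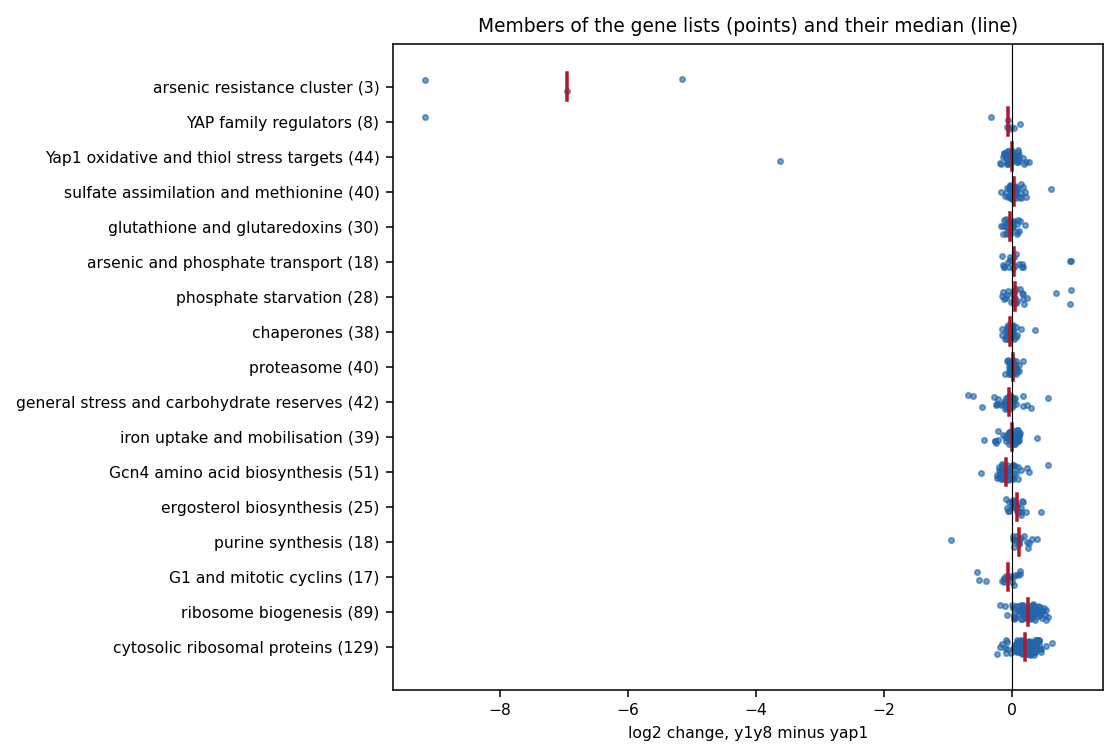
Log2 difference of y1y8 minus yap1 (horizontal axis) for the measured members of 17 gene lists (points, number measured in brackets), with the list's median as a red line. The arsenic resistance genes and FRM2 stand far left, ARR1 appears in 2 lists, and the ribosome biogenesis and ribosomal protein lists have medians of 0.25 and 0.21.

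Genes of the ribosome lay slightly higher in y1y8 as a list, and none of them passed the adjusted threshold singly. Of 129 cytosolic ribosomal protein genes 0 were called, the smallest adjusted p was 0.164, and the median difference was 0.21, against -0.0035 over all genes. At an unadjusted p under 0.05, limma gave 72 of them higher and 2 lower, which is 55.8% higher against 3.97% of all genes. That count was 58 without y1y8 replicate 3, but 19 with median centring of the arrays and 28 with scaling to the 75th percentile. Groups did not overlap for 80 higher and 1 lower, against 7.03% and 5.46% of all genes. RPL25 had 2086, 2174 and 2332 in y1y8, against 1777, 1842 and 1645 in yap1, and 8085 to 8422 in untreated wild type. RPS17A had 1957, 1931 and 2192 in y1y8, against 1680.3, 1581 and 1553 in yap1. The y1y8 arrays were higher without overlap for both genes, and the difference was 0.32 ± 0.06 for RPL25 and 0.34 ± 0.07 for RPS17A (limma adjusted p = 0.164 each). RPL15A was the largest against this direction, at -0.23 ± 0.09 (limma adjusted p = 0.648). Of the 129 genes, 26 were read by probe sets that the array's naming marks as shared among similar sequences, so that near-identical copies cannot be told apart there.

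Set against the mean of the yap1 arrays, the median of the ribosomal protein list was 0.19, 0.21 and 0.23 on the y1y8 arrays and 0.00, 0.07 and -0.07 on the yap1 arrays. The lists' medians of the 2 groups did not overlap. Without y1y8 replicate 3 the median difference was 0.19. The list's median was -0.08 in yap8 against treated wild type. Of 89 ribosome biogenesis genes 0 passed and the median was 0.25, with 25 higher (28.1%, against 3.97% of all genes) and 0 lower (against 2.83% of all genes) at an unadjusted p under 0.05. Its medians were 0.16, 0.22 and 0.41 on the y1y8 arrays and -0.12, 0.16 and -0.03 on the yap1 arrays, so that the groups almost touched, and without y1y8 replicate 3 the median difference was 0.16. The count of 25 was 3 without that array, 3 without yap1 replicate 1, 8 without yap1 replicate 3, 16 without y1y8 replicate 2 and 11 with median centring. NSR1, a nucleolar protein of ribosome assembly, had 2557, 2836 and 4132 in y1y8, against 1936, 2538 and 2060.1 in yap1, apart by a small gap (difference 0.52 ± 0.17, limma adjusted p = 0.486), and without y1y8 replicate 3 the difference was 0.32. These lists are given by counts and medians only, and the values without single arrays stand beside them.

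**Figure D5:**
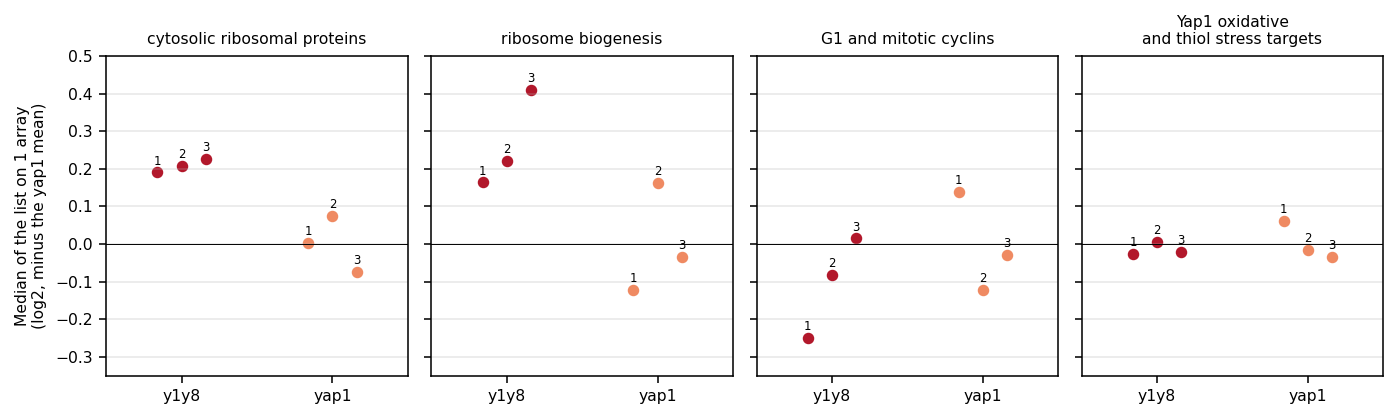
Median of 4 gene lists on each y1y8 array and each yap1 array (points, with the replicate number), as log2 signal minus the mean of the yap1 arrays. The ribosomal protein medians of y1y8 lie between 0.19 and 0.23, above the yap1 arrays, the biogenesis median of y1y8 replicate 3 is the highest at 0.41, and cyclins and Yap1 targets overlap between the groups.

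None of 17 G1 and mitotic cyclin genes passed, and 3 were lower at an unadjusted p under 0.05, namely CLN1 (-0.41), PCL1 (-0.51) and CLB6 (-0.54, or -0.32 without y1y8 replicate 3). These are 17.6% of the list, against 2.83% of all genes. CLN1, a G1 cyclin gene, had 79.6, 80.4 and 101 in y1y8, against 126, 90.8 and 131.3 in yap1, which overlapped. Of 18 genes of purine synthesis none passed, with a median of 0.11. IMD2, which encodes an IMP dehydrogenase, had 192.5, 280.2 and 80.9 in y1y8, against 349.1, 334.1 and 268.6 in yap1, which overlapped (difference -0.95 ± 0.35, limma adjusted p = 0.577), and without y1y8 replicate 3, the lowest array, the difference was -0.44. Its relative IMD3 differed the other way, by 0.39 ± 0.11 (limma adjusted p = 0.394). ERG5, a sterol desaturase gene, had 518.8, 609.1 and 680.6 in y1y8, against 450.8, 434.9 and 424.7 in yap1, which did not overlap (difference 0.46 ± 0.10, limma adjusted p = 0.253), and 0 of 25 ergosterol genes passed. None of 51 amino acid genes under Gcn4 (median -0.08), 42 genes of general stress and carbohydrate reserves (median -0.05), 39 of iron uptake (median -0.00044) and 39 of the respiratory chain (median 0.01) passed. None of the genes specific to either mating type passed, 7 of MATa cells and 4 of MATalpha cells.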

How the data were processed

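RNA of 15 yeast samples was measured on Affymetrix arrays. The authors deposited, per the file headers, a linear intensity (Signal) with a detection call for each of 10928 probe sets of each array. Partek is named in the submitters' processing notes with no version, and how probes were summarised is not stated in the sources. The deposited series matrix held the same intensities (largest difference 0). The authors' deposited table for yap8 gives a signed fold score, and 60 per-sample columns of such tables were left aside.

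Gene names came from the platform annotation (5498 probe sets) or the authors' workbook (140), and 213 controls, 1746 probe sets of another species, 1 with several genes and 3330 without a name were left out. For 48 genes with several probe sets the brightest was used, leaving 5588. No build is named in the files, so no coordinates are given.

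Intensities were quantile normalized, floored at 1 and taken as log2. Tests used R 4.3.3 with limma 3.58.1 (eBayes after lmFit, group means of all 15 arrays, two-sided, Benjamini-Hochberg, threshold 0.05), tested on simulated data. The number of arrays limits the precision. The genes named were drawn from the regulator and arsenic genes, the neighbours of YAP1 and ARR1 and all genes past the threshold. Others came from up to 3 members of each list with the smallest p, the largest against its median, and marker genes. HBN1, KEL1, OYE3, SUL1, GTT2, TRR1, FLR1, YCF1, FPS1, GSH1, SRX1, ZTA1, TOS6, SVS1, YKR005C, YOL164W-A, YNL162W-A, YLR162W, MGA1 and those named below as gained under single settings were chosen after their values were seen. The members and lists were chosen with earlier results of these data known.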

Additional observations from a re-analysis of the deposited data

Results flagged for a closer look

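3 genes stood out because their change on Yap8 loss differed between cells without and with Yap1 by the test of that difference. ARR2 differed by -4.43 (-6.95 without and -2.52 with Yap1, limma adjusted p = 2.15e-08), ARR3 by -3.39 (-5.15 without and -1.76 with Yap1, limma adjusted p = 3.65e-06) and FRM2 by -3.48 (-3.62 without and -0.14 with Yap1, limma adjusted p = 3.65e-06). Each was lower on 3 of 3 y1y8 arrays than on every yap1 array, as were 5.46% of all genes. The test that picked these genes used the same arrays, so the separation is no further support. Groups of 3 arrays are too small for a test of single outlying arrays.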

How the results depend on the processing

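ARR1, ARR2, ARR3 and FRM2 passed in y1y8 against yap1 under each of the 16 alternatives, with adjusted p up to 0.00109, and differences ran from -9.58 to -6.69 for ARR1, -7.05 to -6.27 for ARR2, -5.33 to -4.88 for ARR3 and -3.76 to -3.39 for FRM2. In every tally of alternatives, the setting with the series matrix values held the same intensities as the main fit (largest difference 0). Its outcome was fixed, and it adds nothing to these tallies. Genes lower in y1y8 than in yap1 numbered 4 to 8 when 1 array was left out: 8 without yap1 replicate 2, which added SVS1, TOS6 and YOL164W-A, and 4 where KEL2 was lost. Genes higher numbered 0 to 1 when 1 array was left out (PBP2 without yap1 replicate 1, URA3 without yap1 replicate 2), 1 with 16 added before log2 and 1 with an intensity trend and robust prior (URA3 each), and 2 with the mean of probe sets (URA3 and RPL21A). The cause was not tested for any of these. At an unadjusted p under 0.05, limma gave 12 to 305 genes higher and 14 to 243 lower over the alternatives, against 222 and 158 as reported. Of these, the test against a change of 1.2-fold asks more by construction and gave the fewest, and median centring gave 114 and 98. The difference between both backgrounds gave 3 genes throughout, except 4 without yap1 replicate 1 (PBP2 added), and Yap8 loss with Yap1 present gave 5 to 10. With the replicate number as a block there were 4 lower (KEL2 at an adjusted p of 0.0738), 0 higher, 3 for the difference and 5 for yap8 against wild type, but same-numbered arrays of y1y8 and yap1 deviated from their group means at correlations of -0.22, 0.41 and 0.05, not every array correlated best with its own number, and the numbers were not taken as a pairing. The median of all genes lay at -0.02 under median centring and under 75th percentile scaling, which also align the arrays with each other. Slide or scan date as a block was not run, since the files give none. Of ribosomal protein genes 1 to 82 and of ribosome biogenesis genes 0 to 36 were higher at an unadjusted p under 0.05. The median of ribosomal protein genes ran from 0.17 to 0.25 and that of ribosome biogenesis genes from 0.16 to 0.31. Signals near those of absent probe sets, as for ARR1 without Yap8, give no firm fold change. Groups of 3 arrays leave small differences unresolved, as do p-values that miss the threshold. Fold changes are relative to the rest of the array, so that a change in total RNA cannot be seen.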
